A study of Saccharomyces cerevisiae with 9 samples.

Results

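The CDP-diacylglycerol route is the set of enzymes by which budding yeast turns phosphatidate into its main membrane phospholipids. It is described here by 7 genes chosen by name from their known roles: CDS1, CHO1, PSD1, PSD2, CHO2, OPI3 and PGS1. These 7 were among the 7122 genes of the deposited count table, and all 7 were among the 6150 genes that passed the filter on low counts. Poly(A) RNA came from Saccharomyces cerevisiae of the strain labelled CEN.P.K prototrophic, grown to log phase in minimal SD medium with 2% glucose. There were 3 libraries of pah1Δ, a strain without the phosphatidate phosphatase gene PAH1, 3 of dgk1Δ, a strain without the diacylglycerol kinase gene DGK1, and 3 of wild type (WT). The labels say nothing of inositol or choline in the medium, of how the genes were deleted or of the number of clones. Nothing in the labels says that replicates were separate cultures, so p-values measure only the spread between these libraries, which may be technical.

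Cds1 joins phosphatidate to CTP and makes CDP-diacylglycerol, the branch point of the route. From there Cho1 makes phosphatidylserine, Psd1 and Psd2 decarboxylate it to phosphatidylethanolamine, and the methyltransferases Cho2 and Opi3 turn that into phosphatidylcholine. Pgs1 instead acts in the mitochondrial branch that leads to cardiolipin. Pah1 draws phosphatidate away towards diacylglycerol and Dgk1 returns it. In textbook yeast biology, phosphatidate of the endoplasmic reticulum holds the repressor Opi1 out of the nucleus, and Opi1 acts on promoters that the activator pair Ino2 and Ino4 binds at an inositol-sensitive element with the core CATGTG.

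The upstream sequences of the 7 genes were read from the RefSeq genome of build R64, in which all 7 had the coordinates of the deposited table. The core CATGTG, on either strand, lay within 500 bases before the gene start of all 7 genes, against 13.2% of 6000 protein-coding genes. In a window from 250 bases before to 50 after the gene start, 6 of the 7 genes had a match, against 6.93% of 6001 genes, because those of CHO2 lie farther upstream. The longer form CATGTGAA was found within 500 bases of 3 genes, CDS1, CHO1 and CHO2, against 1.45% of all. The looser form CANNTG, which contains the core, was present within 500 bases of 82.5% of all genes and says little. A match is a description of letters and not evidence of binding.

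The windows of OPI3, CHO2, CHO1 and PSD1 are shown because these genes had the largest differences between pah1Δ and dgk1Δ. Each is 150 bases long, 5′ to 3′ on the strand of its gene, with the core on either strand in capitals. The OPI3, CHO1 and PSD1 windows begin 250 bases before the gene start, and that of CHO2 begins 350 bases before it (build R64).
OPI3, chrX:573036-573185, minus strand: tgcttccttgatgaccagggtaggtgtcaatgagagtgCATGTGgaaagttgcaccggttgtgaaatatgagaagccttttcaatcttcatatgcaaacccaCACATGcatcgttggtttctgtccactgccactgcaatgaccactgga
CHO2, chrVII:802090-802239, plus strand: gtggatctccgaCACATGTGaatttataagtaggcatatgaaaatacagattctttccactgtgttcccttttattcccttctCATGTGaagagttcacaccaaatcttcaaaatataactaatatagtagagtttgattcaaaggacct
CHO1, chrV:208575-208724, minus strand: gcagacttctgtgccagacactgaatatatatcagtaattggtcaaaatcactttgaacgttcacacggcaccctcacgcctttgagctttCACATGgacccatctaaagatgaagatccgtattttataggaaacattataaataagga
PSD1, chrXIV:317772-317921, minus strand: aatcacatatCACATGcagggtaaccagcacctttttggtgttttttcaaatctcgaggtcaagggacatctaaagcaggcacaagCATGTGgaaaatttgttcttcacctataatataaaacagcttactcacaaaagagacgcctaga

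OPI3 and PSD1 each had 2 cores, CHO1 had 1, and CHO2 had 3, of which a pair on opposite strands overlap in the 8-base run CACATGTG. The more distant core of OPI3, 212 bases before its start, lies inside the coding sequence of the divergent gene MOG1, and the nearer one, at 148 bases, lies between the genes. Among the genes not printed, CDS1 had 1 core at 162 bases, PSD2 had cores at 174 and 132 bases, and PGS1 at 159 and 121 bases.

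**Figure D1:**
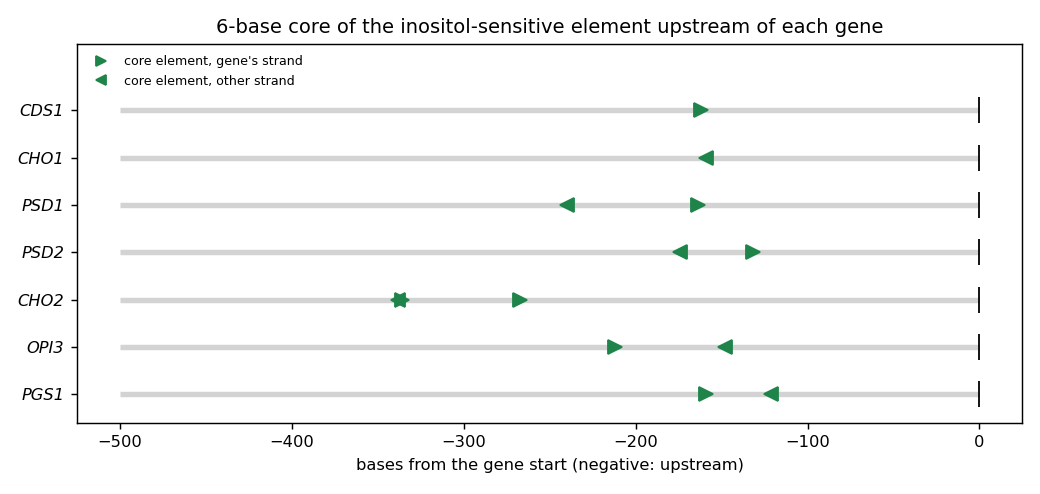
Positions of the 6-base core upstream of each gene, in bases from the gene start, over 500 bases; arrowheads point along the strand of the core. Each of the 7 genes has at least 1 core, and those of CHO2 lie farthest upstream.

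The deleted genes matched the labels: PAH1 had 0 counts in each pah1Δ library and at least 454 in every other library, and DGK1 had 1 to 2 counts in the dgk1Δ libraries and at least 1030 in every other. Libraries held 9205454 to 12795803 counts. The genes URA3, LEU2, HIS3 and TRP1, whose loss makes laboratory strains auxotrophic, were read in all 9 libraries, with at least 326 counts each. The summed level of 5 a-cell genes was 1070 to 1244 CPM (counts scaled to library size) in pah1Δ, 1715 to 1943 CPM in dgk1Δ and 1854 to 2009 CPM in WT. That of 4 alpha-cell genes was 67.6 to 75.9 CPM in pah1Δ, 50.3 to 56.8 CPM in dgk1Δ and 40.3 to 54.8 CPM in WT. In pah1Δ against WT, 5 of 5 a-cell genes were called lower, where 12.6% of all tested genes were, and 2 of 4 alpha-cell genes were called higher, where 16.6% of all were. In dgk1Δ against WT 0 of 5 a-cell genes and 1 of 4 alpha-cell genes (STE3, higher) were called, where 1.64% of all tested genes were called higher and 0.276% lower. None of these markers was at 0 in any library, and their part in the results was not tested. The level of a library relative to its group mean moved with gene length in all 3 groups (Spearman correlation across 5304 genes, which are not independent replicates). It was 0.33, -0.682 and 0.639 in pah1Δ replicates 1 to 3, -0.138, 0.537 and -0.429 in those of dgk1Δ and -0.745, 0.693 and 0.605 in those of WT. Deviations from a group mean sum to 0, so 1 library with a trend gives the others of its group the opposite sign. Long genes were lowest in WT replicate 1 and pah1Δ replicate 2. The exonic lengths of the 7 genes run from 621 bases (OPI3) to 3417 bases (PSD2), so values with and without these 2 libraries are given where they matter. In RNA of a whole culture, fewer cells that express a gene and less RNA of it per cell cannot be told apart.

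Per length, OPI3 was the most abundant of the 7 transcripts in every group and PGS1 the least. The mean level of OPI3 was 2073 ± 110 FPKM (fragments scaled by gene length and library total, as deposited) in pah1Δ, 669.9 ± 212 FPKM in dgk1Δ and 934.4 ± 188 FPKM in WT (SD, n = 3 each). PGS1 stood at 25.3 ± 3.66 FPKM in pah1Δ, 22.6 ± 0.995 FPKM in dgk1Δ and 22.7 ± 4.28 FPKM in WT (SD, n = 3 each). OPI3 was thus 82.0 times PGS1 in pah1Δ, 29.6 times in dgk1Δ and 41.1 times in WT.

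In WT the order by FPKM was OPI3, CHO1 (583.4 ± 49.0), CDS1 (252.8 ± 20.1), CHO2 (248.8 ± 15.7), PSD1 (180.0 ± 22.5), PSD2 (31.6 ± 6.18) and PGS1. Of neighbours in that order, CDS1 and CHO2, and PSD2 and PGS1, overlapped in their libraries, while every other neighbour pair was separate in all 3. The order was different in pah1Δ, where CHO2 followed CHO1 at 328.6 ± 8.24 FPKM, separate from CDS1 (264.6 ± 13.0) and PSD1 (243.8 ± 11.9), which overlapped. In dgk1Δ the order was that of WT, but OPI3 overlapped with CHO1 (457.2 ± 110 FPKM), and CDS1 again with CHO2. The mean of OPI3 lay above 98.4% of the tested genes in pah1Δ, 94.9% in dgk1Δ and 96.0% in WT. PSD2, the decarboxylase of the endosomal system, and PGS1 lay far lower, above 37.8% and 27.7% of tested genes in WT. PSD1, the mitochondrial decarboxylase, was above 84.3%.

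**Figure D2:**
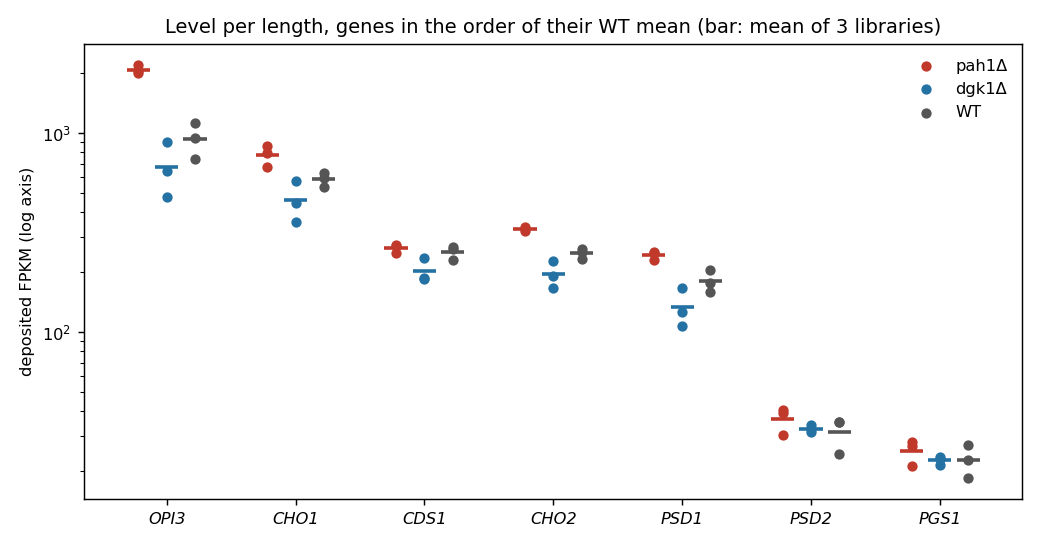
Deposited FPKM of each gene in every library on a log axis, with pah1Δ left, dgk1Δ in the middle and WT right within each gene; bars are means of 3 libraries. OPI3 is highest in each group and spreads most between groups, and PSD2 and PGS1 lie at or below 40.4 FPKM in every library.

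The 5 genes CDS1, CHO1, PSD1, CHO2 and OPI3, which lead from phosphatidate to phosphatidylcholine, were higher in pah1Δ than in dgk1Δ, and PSD2 and PGS1 were not called in that comparison. Calls were made with edgeR's quasi-likelihood test in 1 fit of all 9 libraries, where the p adjusted over all tested genes (Benjamini-Hochberg) was under 0.05. In pah1Δ against dgk1Δ, 5 of the 7 were called, all higher, and 25.1% of all tested genes were called (14.2% higher and 10.8% lower). Against WT, CHO2 and OPI3 were called higher in pah1Δ, 2 of the 7, where 29.2% of all tested genes were called (16.6% higher and 12.6% lower). In dgk1Δ against WT 0 of the 7 were called, where 1.92% of all tested genes were (1.64% higher and 0.276% lower). The share called in pah1Δ against WT was thus close to that of all genes. The median log2 fold change of the 7 genes was 0.69 in pah1Δ against dgk1Δ, 0.31 in pah1Δ against WT and -0.38 in dgk1Δ against WT. For all tested genes these medians were 0.003, 0.001 and 0.005. The comparisons share libraries, so their values are set side by side and are not independent of each other.

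**Figure D3:**
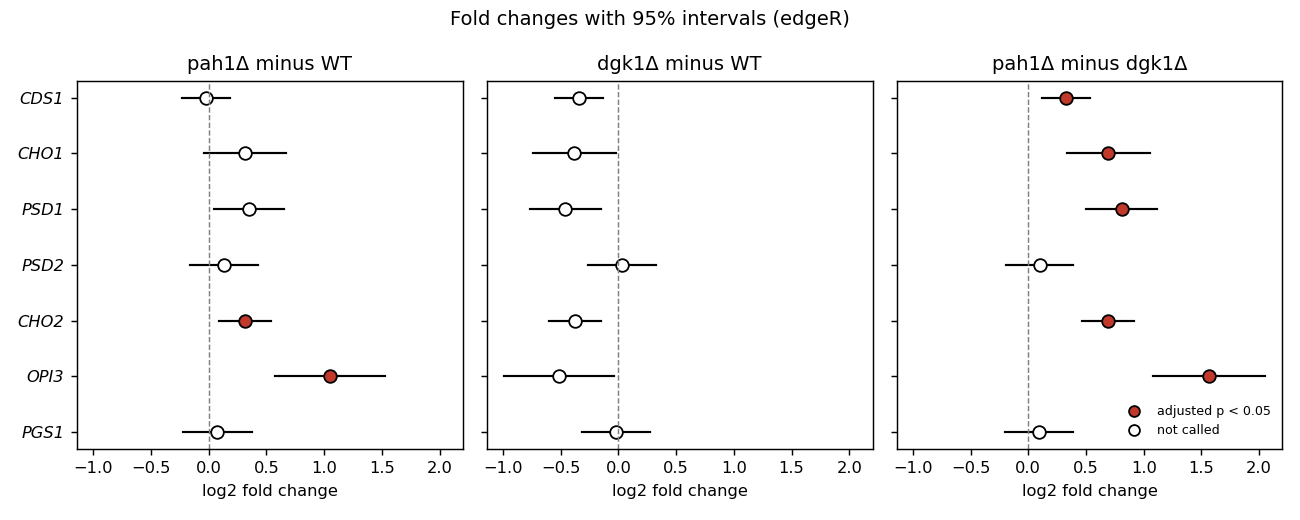
Log2 fold change of each gene with its 95% interval in 3 comparisons; filled points have an adjusted p under 0.05 in edgeR's quasi-likelihood test. In pah1Δ minus dgk1Δ the points of CDS1, CHO1, PSD1, CHO2 and OPI3 lie between 0.33 and 1.57, and none is filled in dgk1Δ minus WT.

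OPI3 (YJR073C, chromosome X, 572315 to 572935), whose enzyme makes the last methylations to phosphatidylcholine, had the widest range. It had 1206, 1315 and 1207 CPM in the pah1Δ libraries, 558.1, 295.1 and 406.9 CPM in the dgk1Δ libraries and 745.1, 458.7 and 593.5 CPM in the WT libraries. All 3 pah1Δ libraries lay above all 6 others, while dgk1Δ and WT overlapped. OPI3 rose in pah1Δ by 1.05 on the log2 scale against WT (SE 0.216, edgeR adjusted p = 0.00448), which is 2.07-fold. Against dgk1Δ it was higher by 1.57 (SE 0.219, edgeR adjusted p = 0.000436), or 2.96-fold. In dgk1Δ against WT the difference was -0.51 (95% interval -0.99 to -0.04, edgeR adjusted p = 0.501). Without WT replicate 1, which had the highest WT value of this short gene, the log2 fold change in pah1Δ was 1.24 (edgeR adjusted p = 0.000588) and that in dgk1Δ was -0.33. The dgk1Δ value was -0.77 without dgk1Δ replicate 1 and -0.31 without dgk1Δ replicate 2. With the length trend of each library removed, the values were 1.06 and -0.49.

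CHO2 (YGR157W, chromosome VII, 802440 to 805049), the gene of the first methylation of phosphatidylethanolamine, was tight within pah1Δ and WT. Its level was 823.3, 845.1 and 815.2 CPM in pah1Δ, 593.9, 435.6 and 511.5 CPM in dgk1Δ and 649.4, 658.7 and 690.7 CPM in WT. The groups did not overlap in any of the comparisons: pah1Δ was highest, WT in the middle and dgk1Δ lowest. CHO2 rose in pah1Δ against WT by 0.31 (SE 0.102, edgeR adjusted p = 0.0407) and was higher than in dgk1Δ by 0.69 (SE 0.103, edgeR adjusted p = 0.000673). The call against WT sat close to the threshold and ended in 6 of the 9 fits without 1 library: those without pah1Δ replicate 1, 2 or 3, WT replicate 2 or 3, or dgk1Δ replicate 3. In those fits and the fit with a replicate block the adjusted p reached 0.103 (edgeR). For dgk1Δ against WT the difference of -0.38 (95% interval -0.60 to -0.15) did not pass (edgeR adjusted p = 0.154).

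PSD1 (YNL169C, chromosome XIV, 316169 to 317671) encodes the phosphatidylserine decarboxylase of the mitochondrial inner membrane. It had 358.4, 364.7 and 337.8 CPM in pah1Δ, 250.2, 160.9 and 194.1 CPM in dgk1Δ and 257.5, 264.5 and 309.8 CPM in WT. As with CHO2, the groups were separate, with pah1Δ above WT and WT above dgk1Δ. PSD1 was higher in pah1Δ than in dgk1Δ by 0.81 (SE 0.139, edgeR adjusted p = 0.00164), or 1.75-fold. Against WT the difference was 0.35 in pah1Δ (95% interval 0.05 to 0.66, edgeR adjusted p = 0.0797) and -0.46 in dgk1Δ (95% interval -0.77 to -0.15, edgeR adjusted p = 0.226), and neither passed. The call in pah1Δ against WT turned on the setting: PSD1 was called higher in 6 of 22 alternatives, at an adjusted p of 0.0285 and 0.04 (edgeR) without dgk1Δ replicate 1 or 2, 0.0331 with only the 2 groups, 0.041 with library size only and 0.0447 and 0.045 in the limma fits. Over all 22 the adjusted p ran from 0.0285 to 0.334. PSD1 overlaps the annotated gene YNL170W on the opposite strand by 205 bases, and no strand-marking step is named for these libraries. YNL170W had 63 to 230 counts per library, against 1899 to 4209 for PSD1.

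CHO1 (YER026C, chromosome V, 207644 to 208474), the phosphatidylserine synthase gene, had 626.2, 688.1 and 547.8 CPM in pah1Δ, 479.4, 296.5 and 374.9 CPM in dgk1Δ and 561.8, 440.4 and 495.1 CPM in WT. All pah1Δ libraries lay above all dgk1Δ libraries, and WT overlapped with both. CHO1 was higher in pah1Δ than in dgk1Δ by 0.70 (SE 0.162, edgeR adjusted p = 0.00978). Without both libraries in which long genes were lowest (WT replicate 1 and pah1Δ replicate 2), this difference was 0.62 and was not called (edgeR adjusted p = 0.0772). Against WT the differences were 0.31 in pah1Δ (95% interval -0.04 to 0.67, edgeR adjusted p = 0.173) and -0.38 in dgk1Δ (95% interval -0.74 to -0.02, edgeR adjusted p = 0.51). The dgk1Δ value was -0.57 without dgk1Δ replicate 1 and -0.225 without dgk1Δ replicate 2.

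CDS1 (YBR029C, chromosome II, 296369 to 297742), the CDP-diacylglycerol synthase gene at the head of the route, had its lowest values in dgk1Δ. It had 358.9, 330.7 and 363.6 CPM in pah1Δ, 323.4, 258.0 and 259.5 CPM in dgk1Δ and 339.7, 356.1 and 372.5 CPM in WT. The dgk1Δ libraries were below all others. CDS1 was higher in pah1Δ than in dgk1Δ by 0.33 (SE 0.094, edgeR adjusted p = 0.0273), a call that ended in the fits without pah1Δ replicate 1 or 3 or dgk1Δ replicate 2 or 3 (edgeR adjusted p up to 0.119). The difference between pah1Δ and WT was -0.02 (95% interval -0.23 to 0.19). Between dgk1Δ and WT it was -0.35 (95% interval -0.55 to -0.14, edgeR adjusted p = 0.154).

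**Figure D4:**
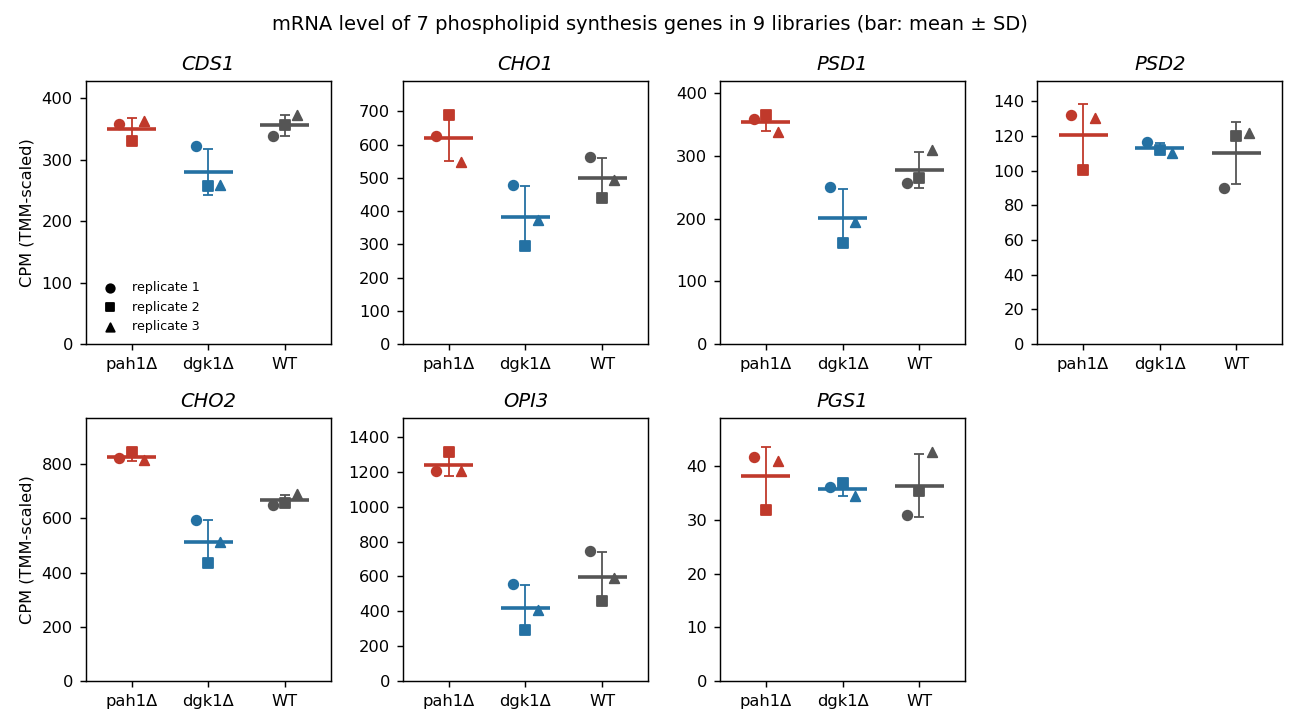
Level of the 7 genes in CPM in every library, with pah1Δ left, dgk1Δ in the middle and WT right; point shapes give the replicate and bars the mean ± SD of 3 libraries. In CHO2 and PSD1 the 3 groups are separate, with pah1Δ above WT and WT above dgk1Δ, while PSD2 and PGS1 overlap across all groups.

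The remaining genes, PSD2 and PGS1, showed no called difference in any of the 3 comparisons. PSD2 (YGR170W, chromosome VII, 837142 to 840558), which encodes the decarboxylase of the endosomal system, had 131.8, 100.1 and 130.1 CPM in pah1Δ, 116.6, 111.6 and 110.2 CPM in dgk1Δ and 89.8, 119.7 and 121.5 CPM in WT. The lowest values in pah1Δ and WT belonged to the libraries in which long genes were low, pah1Δ replicate 2 and WT replicate 1, and PSD2 is the longest of the 7. The differences were 0.13 in pah1Δ against WT (95% interval -0.16 to 0.43), 0.03 in dgk1Δ against WT (95% interval -0.26 to 0.33) and 0.10 in pah1Δ against dgk1Δ (95% interval -0.20 to 0.39). With the length trend of each library removed, PSD2 was higher in pah1Δ by 0.18 against WT and by 0.19 against dgk1Δ, and both passed the test (edgeR adjusted p = 0.0432 and 0.0404). With the replicate block added, the call against WT was lost (0.178, edgeR adjusted p = 0.0517) and that against dgk1Δ stayed (0.186, edgeR adjusted p = 0.0486). Without both WT replicate 1 and pah1Δ replicate 2, and without length correction, PSD2 was called higher in pah1Δ than in dgk1Δ (0.222, edgeR adjusted p = 0.00647). Against WT it was not called in that fit (0.124, edgeR adjusted p = 0.146). Without the length correction, PSD2 in pah1Δ against WT ran from 0.004 without WT replicate 1 to 0.249 without pah1Δ replicate 2.

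PGS1 (YCL004W, chromosome III, 109105 to 110670), the gene of phosphatidylglycerolphosphate synthase, had 41.8, 31.9 and 41.0 CPM in pah1Δ, 36.1, 36.8 and 34.4 CPM in dgk1Δ and 31.0, 35.5 and 42.7 CPM in WT. Its groups overlapped in all comparisons. The difference from WT was 0.08 in pah1Δ (95% interval -0.22 to 0.37) and -0.02 in dgk1Δ (95% interval -0.32 to 0.28). PGS1 rests on 309 to 491 counts per library, the fewest of the 7.

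PGS1 lies on the left arm of chromosome III, on which many genes were higher in dgk1Δ. Of 61 tested genes left of the centromere, 33 were called higher in dgk1Δ against WT and 0 lower, with a median log2 fold change of 0.88. On the right arm the median of 97 genes was -0.02, with 0 called. PGS1 was outside the raised stretch: the nearest called gene to its left was KCC4, which starts 29.9 kb away (log2 fold change 1.13, edgeR adjusted p = 0.000382), and 15 tested genes lay between them. The 10 tested genes on either side of PGS1 had medians of -0.06 (left) and -0.01 (right), none was called higher, and the adjoining genes LDB16 and YCL002C gave -0.08 and -0.26. A difference between dgk1Δ and WT that goes with such raised stretches and one that goes with the loss of DGK1 cannot be told apart. Relative to the mean of these 20 neighbours, the log2 level of PGS1 was 0.05 ± 0.018 in dgk1Δ and 0.03 ± 0.29 in WT (SD, n = 3 each; exact permutation test, two-sided, p = 0.9, smallest possible p 0.1). For the other 6 genes, none of the 20 neighbours was called higher in dgk1Δ against WT, and the medians of the 10 genes on a side ran from -0.13 to 0.08.

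**Figure D5:**
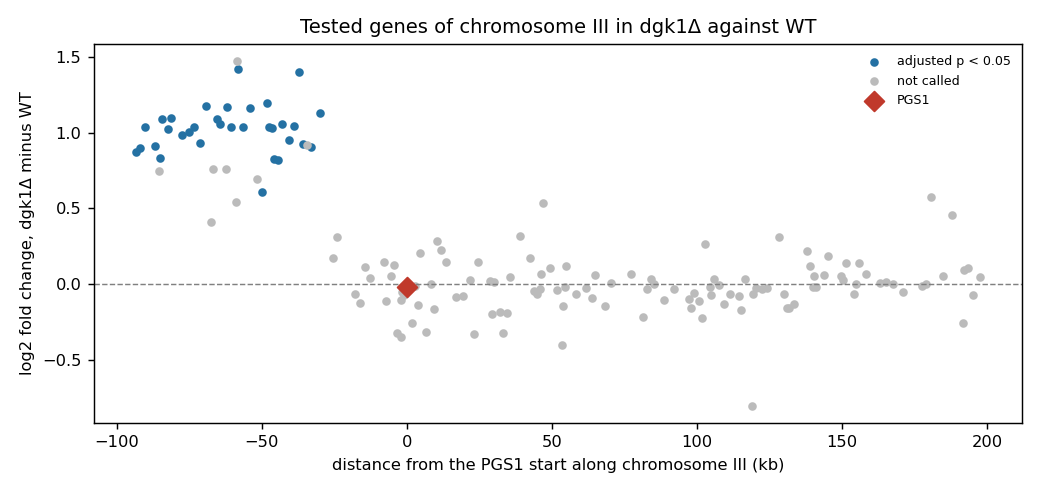
Log2 fold change in dgk1Δ minus WT of the tested genes of chromosome III against their distance from the PGS1 start in kb; blue points have an adjusted p under 0.05 in edgeR's quasi-likelihood test. The raised genes end 29.9 kb left of PGS1, and PGS1 itself lies at -0.02.

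Within dgk1Δ, 5 of the 7 genes ranked the libraries alike. For CHO1, PSD1, CHO2 and OPI3, dgk1Δ replicate 1 had the highest value and replicate 2 the lowest. CDS1 had the same order, with replicates 2 and 3 nearly level. PSD2 and PGS1 did not show this order. Because the 5 genes share an order of libraries, their differences from WT are not independent of each other. In dgk1Δ against WT, CDS1, CHO1, PSD1, CHO2 and OPI3 had an unadjusted p under 0.05 (edgeR's quasi-likelihood test), 5 of 7 genes and all lower, where 8.91% of all tested genes passed that level and 3.66% passed it lower. The count was 3 (CDS1, PSD1 and CHO2) with only the 2 groups and without WT replicate 1 or 3, pah1Δ replicate 1, or dgk1Δ replicate 2 or 3, and without both WT replicate 1 and pah1Δ replicate 2. None passed adjustment over all genes in the edgeR fit used for the calls or in limma on log2(FPKM + 1), while DESeq2 called CDS1, PSD1 and CHO2 lower. The same 3 genes were called lower by edgeR without dgk1Δ replicate 1. With the length trend of each library removed, CDS1 was called lower (edgeR adjusted p = 0.0308, and 0.0416 with the replicate block). Without both WT replicate 1 and pah1Δ replicate 2, CDS1 (-0.38, edgeR adjusted p = 0.00515) and CHO2 (-0.40, edgeR adjusted p = 0.0141) were called lower. The CPM of the dgk1Δ and WT libraries did not overlap for CDS1, PSD1 and CHO2, 3 of 7 genes, and for 16.3% of all tested genes. In pah1Δ against WT this held for PSD1, CHO2 and OPI3 (3 of 7, against 39.4% of all), and in pah1Δ against dgk1Δ for the 5 called genes (5 of 7, against 48.6%).

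Ratios between enzymes of the route within a library do not depend on library scaling. They can carry the length trend of a library, because the genes of a pair differ in length (OPI3 621 and CHO2 2610 bases, PSD1 1503 and PSD2 3417, CHO1 831 and CDS1 1374). For each of these pairs, the highest ratio of WT was in replicate 1 and that of pah1Δ in replicate 2, where long genes were lowest. The part of length in the ratios was not tested. With 3 libraries a group, the smallest p that the two-sided exact permutation test allows is 0.1, so none of these ratios could reach 0.05. Per length, the transcripts of the last methylation outnumbered those of the first: OPI3 was 6.16, 6.54 and 6.22 times CHO2 in pah1Δ, 3.95, 2.85 and 3.34 times in dgk1Δ and 4.82, 2.93 and 3.61 times in WT. All pah1Δ ratios were above all others, and the log2 ratio was higher than in WT by 0.77 (exact permutation p = 0.1, adjusted over 6 tests 0.3). In dgk1Δ it differed from WT by -0.15 (exact permutation p = 0.6).

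For PSD1 over PSD2, the ratio was 6.18, 8.28 and 5.90 in pah1Δ, 4.88, 3.28 and 4 in dgk1Δ and 6.52, 5.02 and 5.80 in WT. Here the dgk1Δ libraries were below all the others, by -0.52 against WT (exact permutation p = 0.1, adjusted 0.3). CHO1 over CDS1 differed by 0.34 in pah1Δ and -0.05 in dgk1Δ, with overlapping groups (exact permutation p = 0.2 and 0.9). The pah1Δ value was 0.216 without pah1Δ replicate 2.

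The genes whose pattern over the 9 libraries was nearest to a called gene were sought among 5296 genes of at least 10 CPM, by the root mean square difference of centred log2 CPM. Nearest to CHO2 were SAM2, which encodes an S-adenosylmethionine synthetase (difference 0.08), and EHT1, an acyltransferase gene (0.11). Nearest to OPI3 were the isocitrate dehydrogenase gene IDP2 (0.22) and AAD16 (0.24), at larger differences than for CHO2. Such a difference depends on the spread of the gene itself. The SD of centred log2 CPM over the 9 libraries was 0.768 for OPI3, 0.325 for CHO2, 0.177 for PSD2 and 0.165 for PGS1. Pearson correlations with the 2 nearest genes were 0.955 and 0.96 for OPI3 and 0.969 and 0.972 for CHO2. For the genes not called against WT, chosen after their values were seen, the nearest were the inositol transporter gene ITR1 and SAM2 for PSD1 (0.08 and 0.11), XPT1 and the activator gene INO4 for CHO1 (0.09 and 0.12), and EPT1 and OPI1 for CDS1 (both 0.08). SAM2 was thus among the 2 nearest genes of both CHO2 and PSD1, and VAM6 was among those of both PSD2 and PGS1 (0.05 and 0.07). SAM2 has a close paralog in the yeast genome, and how reads shared by such copies were counted is not given, so its values are less certain. These libraries share depth and length trends, so likeness is given as a description.

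Around the route, 60 further genes in 8 groups were examined, the deleted genes left out. They are not all lipid genes, since the groups also hold regulators and genes for serine, methyl donor and CTP supply. In pah1Δ against WT 10 of them rose and 9 fell, 31.7% of the genes, close to the 29.2% of all tested genes. In pah1Δ against dgk1Δ 11 were higher and 7 lower (30.0%, against 25.1% of all), and in dgk1Δ against WT 0 were called by edgeR. Their median log2 fold change was -0.01 in pah1Δ against WT, 0.04 in pah1Δ against dgk1Δ and -0.04 in dgk1Δ against WT.

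INO1 had the largest log2 fold change of these 60 genes in pah1Δ against WT and against dgk1Δ. This gene, which makes inositol phosphate, was at 5293 CPM in pah1Δ, 196.5 CPM in dgk1Δ and 245.9 CPM in WT, a log2 fold change of 4.43 in pah1Δ against WT (edgeR adjusted p = 6.8e-05). ITR1 was higher in pah1Δ by 0.48 against WT and by 0.90 against dgk1Δ (edgeR adjusted p = 0.028 and 0.00111). Of the 5 inositol genes 2 rose and 0 fell in pah1Δ against WT. SAM2, which makes the methyl donor of Cho2 and Opi3, rose by 0.41 (edgeR adjusted p = 0.0249). SAM1, the other gene for that synthetase, named after its values were seen, was at -0.11 and did not pass (edgeR adjusted p = 0.433). Of the 9 genes for serine, methyl donor and CTP, 2 rose and 4 fell in pah1Δ against WT. Those that fell included SER33, a dehydrogenase of serine synthesis (-0.57, edgeR adjusted p = 0.000979), the CTP synthase gene URA7 (-0.43, edgeR adjusted p = 0.00212) and SER1, a transaminase of serine synthesis (-0.33, edgeR adjusted p = 0.00995). URA8, the other CTP synthase gene, named after its values were seen, rose by 0.29 (edgeR adjusted p = 0.0394). URA7 was at 296.9 CPM in pah1Δ and 399.3 CPM in WT, and URA8 at 116.7 CPM in pah1Δ and 95.4 CPM in WT.

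Of the 7 regulators of inositol-responsive promoters, INO4 rose in pah1Δ against WT by 0.40 (edgeR adjusted p = 0.0157), and it was 0.72 above dgk1Δ (edgeR adjusted p = 0.000599). INO2 and OPI1, named after their values were seen, stood at -0.05 and 0.01 against WT and did not pass. Of the 7 genes of the Kennedy pathway, the other way to phosphatidylcholine, 0 rose and 2 fell in pah1Δ: PCT1, whose enzyme makes CDP-choline (-0.37, edgeR adjusted p = 0.00427), and the choline transporter gene HNM1 (-0.39, edgeR adjusted p = 0.0113). HNM1 had a like value in dgk1Δ against WT (-0.39), which did not pass (edgeR adjusted p = 0.0854), and 0.007 in pah1Δ against dgk1Δ. In pah1Δ against dgk1Δ, CKI1 and EPT1 of this group were higher by 0.47 and 0.38, and PCT1 was lower by -0.29 (edgeR adjusted p = 0.0183, 0.0118 and 0.0156).

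Among enzymes that make or remove phosphatidate, 2 rose and 2 fell in pah1Δ against WT besides PAH1. NEM1, the catalytic subunit of the phosphatase that activates Pah1, rose by 0.49 (edgeR adjusted p = 0.00127), and the phosphatase gene APP1 rose by 0.41 (edgeR adjusted p = 0.00277). The genes that fell, also named after their values were seen, were SCT1, an acyltransferase gene, and DPP1, a lipid phosphatase gene, which fell by 0.34 and 0.38 (edgeR adjusted p = 0.0223 and 0.00919). SLC1 and ALE1, whose acyltransferases make phosphatidate itself, were at -0.17 and -0.10 against WT and did not pass. In pah1Δ against dgk1Δ, NEM1 and APP1 were called higher (0.72 and 0.38, edgeR adjusted p = 9.97e-05 and 0.00442). SCT1, DPP1 and ALE1 were called lower there (-0.41, -0.36 and -0.23, edgeR adjusted p = 0.0103, 0.0142 and 0.0286), and SLC1 was not called (-0.20). Of 5 other genes of the mitochondrial branch, which act before or after Pgs1, CLD1, a cardiolipin deacylase gene, rose by 0.42 (edgeR adjusted p = 0.0127). TAM41, GEP4 and CRD1 were at 0.22, -0.11 and 0.22 and did not pass. CRD1, the cardiolipin synthase gene, was higher in pah1Δ than in dgk1Δ by 0.38 (edgeR adjusted p = 0.0233).

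Of 6 phosphoinositide kinase genes, STT4 fell by 0.35 in pah1Δ against WT (edgeR adjusted p = 0.0437) and the other 5 did not pass. Of 12 genes of lipid transfer and contact sites, OSH6, a phosphatidylserine carrier, and MDM10 rose by 0.31 and 0.27 (edgeR adjusted p = 0.0177 and 0.0457). In pah1Δ against dgk1Δ, UPS2, whose product carries phosphatidylserine towards Psd1 in mitochondria, was higher by 0.44 and PDR16 by 0.23 (edgeR adjusted p = 0.012 and 0.0378).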

How the data were processed

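The authors deposited whole-number read counts per gene, not normalized, in 1 column per library. Beside them stand the authors' FPKM values, which follow from count, exonic gene size and a library total 0.0158% to 0.0225% above the column sum. HISAT2 2.2.1, HTSeq 0.6.1 and genome build R64 are named in the submitters' processing notes. No source used here gives the annotation release, the strand setting or the treatment of multiply mapped reads. Per the labels' protocols, 2 µg of total RNA gave each poly(A)-selected library. The table held 4 empty lines, and 0 columns of other samples were left unused.

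Counts of 9205454 to 12795803 per library were tested with edgeR 4.0.16 under R 4.3.3 (filterByExpr, TMM, robust quasi-likelihood fit over 9 libraries, 6 residual degrees of freedom, common coefficient of biological variation 0.106). An SE was computed as |log2 fold change| over the square root of F, and 95% intervals use the t distribution of the fit. CPM uses TMM factors, except in marker sums, which use library totals. Alternatives used limma 3.58.1, DESeq2 1.42.0, other scalings, filters, length correction, a replicate block and each library left out. The members and lists were chosen with earlier results of these data known. Named are all 7 genes reported (1 further gene chosen by the same rule is not reported here), up to 3 called genes per list and comparison, enzymes adjacent to the route, the 2 nearest patterns of genes called against WT, the genes beside PGS1 and both deleted genes.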

Additional observations from a re-analysis of the deposited data

How the results depend on the processing

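In pah1Δ against WT the count of called genes of the route, 2, was 1 at an adjusted p under 0.01 and with a replicate block, and 1 to 3 when 1 library was left out. The share of all tested genes called in this comparison was 23.5% with the block and 19.8% to 39.9% when 1 library was left out. OPI3 was called in all 22 alternatives, with the highest adjusted p (edgeR, 0.0492) without both WT replicate 1 and pah1Δ replicate 2. In dgk1Δ against WT the count of 0 was 3 with DESeq2 (2.28% of all tested genes called) and 0 to 3 without 1 library (1.52% to 2.69%). It was 1 with the length trend removed (2.78%) and also 1 with the replicate block added (2.37%). Without both WT replicate 1 and pah1Δ replicate 2 it was 2. That alternative and the length trend with the block were chosen after seeing the data. In pah1Δ against dgk1Δ the count was 4 to 6 in every alternative. At an adjusted p under 0.01 the share of all genes called was 16.9% in pah1Δ against WT and 14% in pah1Δ against dgk1Δ. In pah1Δ against dgk1Δ it was 16.6% to 37.6% without 1 library (highest without WT replicate 1, lowest without pah1Δ replicate 1, dgk1Δ replicate 2 or dgk1Δ replicate 3) and 42.6% without both WT replicate 1 and pah1Δ replicate 2, which gave 6.03% in dgk1Δ against WT. The cause was not tested.

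Values near 0 changed sign. In pah1Δ against WT, CDS1 (-0.02) was 0.067 with library size only and 0.068 in limma on log2(FPKM + 1) and log2(FPKM + 0.1), and without 1 library CDS1 ran from -0.053 to 0.021 (above 0 without WT replicate 3, at 0.013, or pah1Δ replicate 2) and PGS1 from -0.028 (without WT replicate 1) to 0.204. In dgk1Δ against WT, PSD2 ran from -0.097 (without WT replicate 1) to 0.103 without 1 library, and was -0.097 also with pah1Δ replicate 2 left out, -0.007 with the length trend removed and -0.008 with the block added. PGS1 was 0.001 with library size only, -0.126 to 0.102 without 1 library (highest without WT replicate 3, 0.003 without dgk1Δ replicate 3), and 0.011 and 0.012 in the limma fits. The log2 difference between dgk1Δ and WT in the OPI3 to CHO2 ratio ran from -0.317 to 0.043 (without WT replicate 1). The log2 difference in the CHO1 to CDS1 ratio ran from -0.135 to 0.075 (without WT replicate 1) and was 0.068 without dgk1Δ replicate 2. The causes were not tested.

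Same-numbered libraries did not consistently deviate together (correlations -0.507 to 0.359, and 2 of 9 libraries were most like one with their own number). The most alike pair was WT replicate 1 and pah1Δ replicate 2 (0.598), the libraries in which long genes were lowest. These deviations hold the length trend, so they cannot show whether same-numbered libraries share a day or batch. The labels do not say. The block called 1448 genes in pah1Δ against WT, 106 in dgk1Δ against WT and 1218 in pah1Δ against dgk1Δ, against 1798, 118 and 1542 without it. Scaling moved the direction of calls: of genes called in pah1Δ against WT 73.7% were higher with library size only and 74.2% in limma on log2(FPKM + 1), against 56.9% with TMM, and in pah1Δ against dgk1Δ 71.2% and 70.7%, against 56.8%. Other settings gave lower shares than TMM. In pah1Δ against WT the share was 51.9% with RLE size factors in edgeR, 50% with DESeq2 and 50.1% with the length trend removed. In pah1Δ against dgk1Δ these shares were 55.6%, 53.6% and 50.4%. Depth limits PGS1 most, at 309 to 491 counts per library.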
